A study of Mus musculus with 16 samples.

Results

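The genes described here are 10 effectors of the type I interferon response: Ifit1, Ifit2, Ifit3, Rsad2, Cmpk2, Mx1, Mx2, Isg15, Isg20 and Usp18. They were taken as a list of names, and each was looked up among the non-control spots of the array by its symbol or an older or newer one. All 10 were on the array, Cmpk2 under its older name Tyki, with 17 of the 41174 probes. All 10 passed the filter on dim probes, among 14628 genes tested in liver, 14231 in inflammatory cells and 16291 in both together.

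The mice were female C57Bl/6, and every one had received 300 µg of concanavalin A, so no mouse without concanavalin A was measured. Concanavalin A is a lectin from jack beans, and its injection brings on a T cell-driven hepatitis within hours. Stem cells grown in culture from inguinal fat of C57Bl/6 mice were injected into the tail vein, 100000 per mouse. Hepatic inflammatory cells were taken at 5 h, 2 samples from mice given stem cells at 3 h (samples 987 and 989) and 2 from mice given none (983 and 985). Livers at 5 h came from 3 mice given stem cells at 3 h (mice 1, 2 and 3) and 3 given none (mice 4, 5 and 6). Livers at 2 h came from 3 mice given stem cells together with concanavalin A (mice 8, 9 and 10) and 3 given none (mice 11, 12 and 13). The source label of samples 983 and 985 mentions stem cells, but their treatment and description labels name none, and they were used as untreated. The labels name no vehicle injection for mice without stem cells, and whether the 4 samples of inflammatory cells are of 4 separate mice is not stated. For these cells, a p-value therefore covers the spread between samples, which may be technical.

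Cells release type I interferons (interferon-alpha and interferon-beta) after sensing foreign nucleic acid, and neighbouring cells bind them through the receptor subunits IFNAR1 and IFNAR2. The receptor's kinases activate a complex of transcription factors that holds IRF9 and binds the interferon-stimulated response element in the promoters of target genes. Interferon-gamma from T cells and NK cells acts through a receptor of its own and reaches several of the same genes. IFIT1 binds RNA caps that lack a host methyl mark, and viperin (Rsad2) makes a nucleotide that ends viral RNA chains. MX proteins are GTPases that trap viral particles, ISG15 is a ubiquitin-like protein joined to other proteins, and ISG20 degrades RNA. USP18 both removes ISG15 and dampens the receptor.

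The promoters show how far the members share that element. RefSeq (GRCm38.p6) gave windows from 250 bases before to 50 bases after the start for 7 of the 10 members, and 4 of the 7 held the core GAAA-NN-GAAA, where N is any base (searched on both strands, thus also as TTTC-NN-TTTC). Of all 27025 genes in the same table, 3.99% held it in any window, and of all 32851 windows of 300 bases 3.44% held it. The 4 windows with a match are printed 5′ to 3′ on the gene's strand, with the matched letters in capitals, because their members are among those whose liver levels are given next.
Ifit1: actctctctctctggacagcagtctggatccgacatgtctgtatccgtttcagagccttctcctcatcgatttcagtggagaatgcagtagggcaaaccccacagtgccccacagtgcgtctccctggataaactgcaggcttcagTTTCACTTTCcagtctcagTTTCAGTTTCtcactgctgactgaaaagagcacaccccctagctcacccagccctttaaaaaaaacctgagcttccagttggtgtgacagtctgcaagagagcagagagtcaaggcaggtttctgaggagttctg
Ifit3: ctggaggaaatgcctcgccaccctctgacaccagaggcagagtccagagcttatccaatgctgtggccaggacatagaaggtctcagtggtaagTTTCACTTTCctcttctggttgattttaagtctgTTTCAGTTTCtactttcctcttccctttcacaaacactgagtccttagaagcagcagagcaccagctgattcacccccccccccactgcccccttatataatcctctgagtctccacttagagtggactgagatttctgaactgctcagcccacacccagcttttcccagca
Rsad2: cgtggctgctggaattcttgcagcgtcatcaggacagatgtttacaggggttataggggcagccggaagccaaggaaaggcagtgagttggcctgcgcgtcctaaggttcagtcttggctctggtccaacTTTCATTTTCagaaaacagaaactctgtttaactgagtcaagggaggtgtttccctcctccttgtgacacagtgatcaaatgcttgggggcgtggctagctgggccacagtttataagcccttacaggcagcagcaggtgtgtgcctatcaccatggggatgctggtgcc
Isg15: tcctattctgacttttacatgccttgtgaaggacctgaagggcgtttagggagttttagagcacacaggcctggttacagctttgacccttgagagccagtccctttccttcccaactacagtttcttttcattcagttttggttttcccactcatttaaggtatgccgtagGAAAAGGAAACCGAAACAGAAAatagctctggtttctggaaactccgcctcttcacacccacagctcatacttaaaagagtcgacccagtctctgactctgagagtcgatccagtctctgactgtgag
The Ifit1 window lies at chr19:34640639-34640938 on the plus strand and has matches 104 and 85 bases before the start. Ifit3 (chr19:34583279-34583578, plus strand) has the same pair of 10-letter matches, TTTCACTTTC and TTTCAGTTTC, at 156 and 122 bases before its start. Rsad2 (chr12:26456403-26456702, minus strand) has 1 match 120 bases before the start. In Isg15 (chr4:156200769-156201068, minus strand) 3 overlapping matches make a stretch of 22 bases, GAAAAGGAAACCGAAACAGAAA, which begins 78 bases before the start. These letters were not found in the windows of Ifit2 (2 windows), Cmpk2 (1) and Isg20 (3), and Mx1, Mx2 and Usp18 were not searched.

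**Figure D1:**
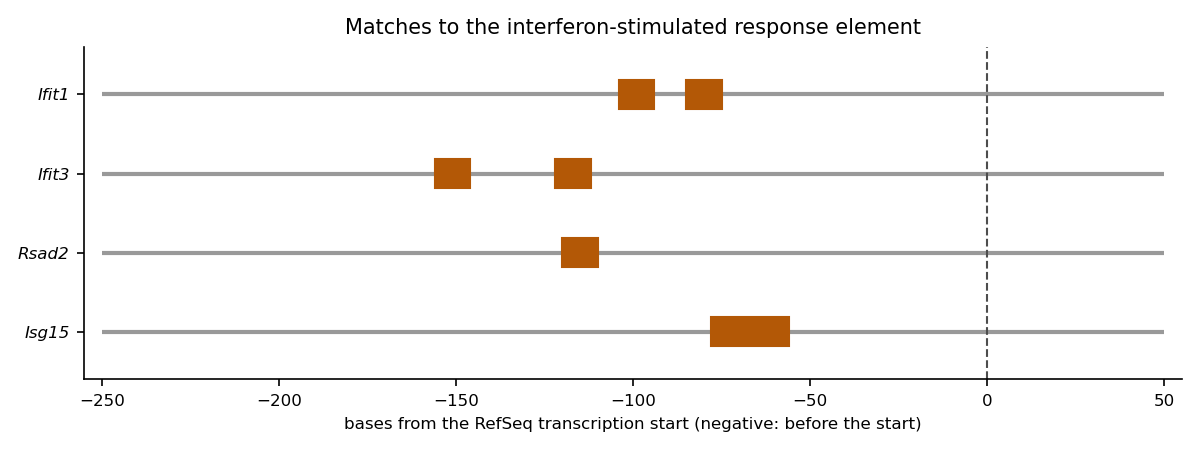
Positions of the response element core in the promoter windows of Ifit1, Ifit3, Rsad2 and Isg15. The horizontal axis gives bases from the RefSeq start (dashed line), each grey line is a window of 300 bases, and blocks mark matches, which begin between 156 and 78 bases before the start.

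Each sample was labelled with Cy3 and hybridised to its own array. Between 52.1% and 62.5% of an array's spots lay well above background. All levels given are log2 processed signals from which that array's own 75th percentile was subtracted, so 0 is that percentile, and they are compared within a gene and not between genes, since probes differ in brightness. Changes are fitted log2 differences ± standard error (SE), and a gene is called where its limma p, adjusted over all genes tested, is under 0.05. In the liver fit and the fit of both tissues, all groups share 1 spread per gene, so an SE also reflects groups outside the comparison. Each of 3 slides held 1 array of every liver group, while the 4 arrays of inflammatory cells shared a slide of their own, so tissue and slide cannot be told apart. Within the slides, all 6 livers at 5 h lay at positions 3 or 4 and all 6 at 2 h at positions 1 or 2, so array position and time cannot be told apart. Nor can position and stem cells at 2 h, where all 3 livers with stem cells lay at position 2 and all 3 without at position 1, or in inflammatory cells, where those with stem cells lay at positions 3 and 4 and those without at 1 and 2. Markers fitted the labelled tissues: the 8 hepatocyte markers averaged 8.39 to 8.91 in livers and 0.75 to 3.32 in inflammatory cells, and the 5 leukocyte markers averaged 5.37 to 5.51 in inflammatory cells and 0.63 to 1.27 in livers.

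In the liver, the effectors were higher at 5 h than at 2 h after concanavalin A. With stem cells, the 5 h mice had received them at 3 h and the 2 h mice together with concanavalin A. Time and schedule thus cannot be told apart in that comparison. In livers with stem cells 10 of 10 members rose and in livers without stem cells 9 of 10 rose, and none of the members fell in either. Of all genes tested, 8.73% rose and 9.76% fell with stem cells, and 6.44% rose and 9.22% fell without. The median change of the members was 3.11 with stem cells (range 2.08 to 4.82) and 1.99 without (range 1.42 to 2.54), against -0.08 for all genes in both. In each comparison the 5 h and 2 h livers did not overlap for any of the 10 members, all higher at 5 h. Of all genes, 18.4% were higher and 24.3% lower without overlap with stem cells, and 15.2% higher and 20.7% lower without stem cells. In bulk liver, fewer cells that make an RNA and less RNA per cell cannot be told apart.

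**Figure D2:**
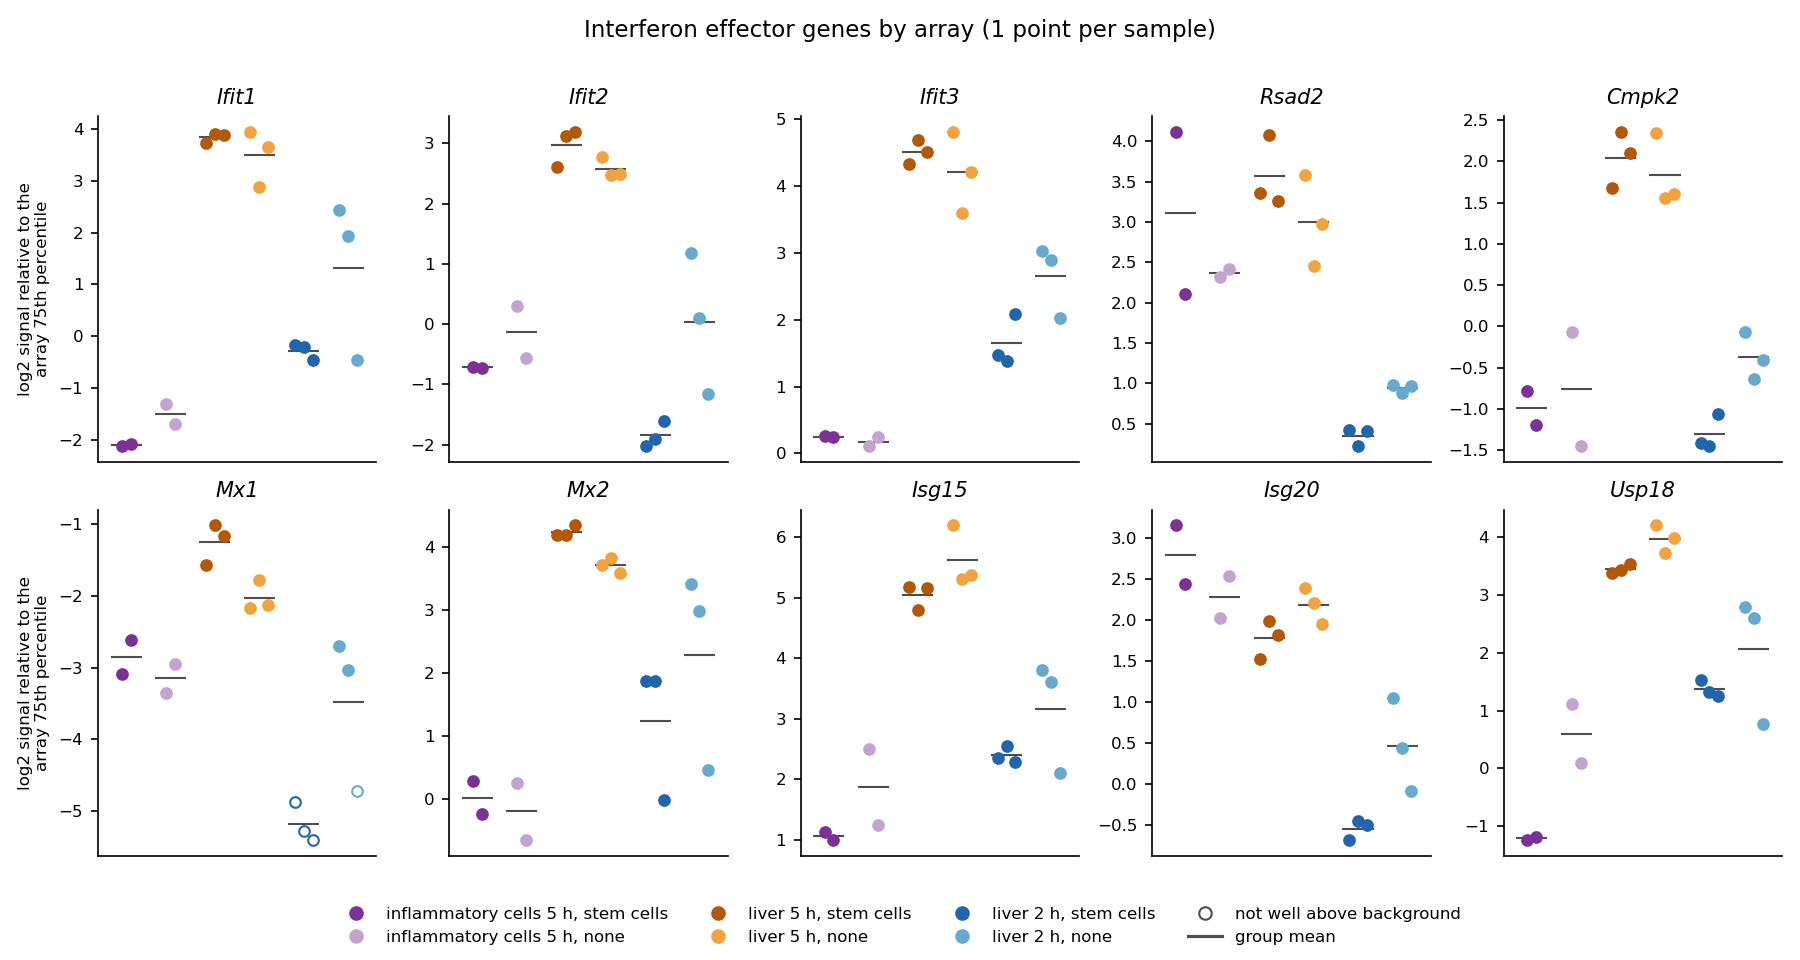
Level of each member in every sample, in log2 units above or below the 75th percentile of the array, with 1 point per sample, group means as lines and open points for spots not well above background. All 6 livers at 5 h lie above all 6 livers at 2 h for all 10 members, most narrowly for Mx2, with 3.60 as the lowest 5 h value and 3.43 as the highest 2 h value. The share of all genes that separate in this way was not counted.

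The IFIT genes, whose proteins form complexes on foreign RNA, lie side by side on chromosome 19, where mm8 places the probes used for Ifit1 at 34715303 to 34715362, for Ifit2 at 34641751 to 34641810 and for Ifit3 at 34654612 to 34654671. Ifit1, whose protein holds such caps away from the ribosome, had levels of 3.72, 3.90 and 3.89 in 5 h livers with stem cells, against -0.18, -0.22 and -0.47 in 2 h livers with stem cells. In livers without stem cells it lay at 3.94, 2.88 and 3.66 at 5 h and at 2.44, 1.94 and -0.46 at 2 h. The 2 h livers without stem cells thus spread widely, with mouse 13 down among the livers with stem cells. Ifit1 rose 17.5-fold with stem cells (4.13 ± 0.60, adjusted p = 0.00244) and 4.56-fold without (2.19 ± 0.60, adjusted p = 0.0362). The call without stem cells is narrow: the adjusted p ran from 0.00951 to 0.141 over the other settings.

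Ifit2, an RNA-binding relative with antiviral effect in the mouse nervous system, moved most in both comparisons. It lay at 2.60, 3.12 and 3.19 in 5 h livers with stem cells, against -2.03, -1.90 and -1.61 at 2 h. Without stem cells its levels were 2.78, 2.47 and 2.48 at 5 h and 1.18, 0.10 and -1.17 at 2 h. The 5 h livers with and without stem cells overlapped, and the 2 h livers did not, with all 3 treated mice below the lowest untreated one. Ifit2 rose 28.2-fold with stem cells (4.82 ± 0.46, adjusted p = 0.000385) and 5.82-fold without (2.54 ± 0.46, adjusted p = 0.00807).

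For Ifit3, a partner of the other IFIT proteins, 5 h livers with stem cells held 4.34, 4.68 and 4.51, against 1.47, 1.39 and 2.09 at 2 h. Without stem cells the levels were 4.81, 3.59 and 4.21 at 5 h and 3.03, 2.89 and 2.02 at 2 h. Ifit3 rose by 2.86 ± 0.34 with stem cells and by 1.55 ± 0.34 without (adjusted p = 0.00107 and 0.0165). Ifit3b, a close copy of Ifit3, starts 24.4 kb after it in GRCm38, and whether the probes tell the copies apart was not tested. The second Ifit3 probe is listed 24.0 kb from the one used and had the same sign in all the liver comparisons.

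Rsad2 and Cmpk2 are neighbours on chromosome 12, with 12.7 kb between the 2 genes in GRCm38. The probes used lie at 27029262 to 27029321 and 27065522 to 27065581 of mm8. Their products act on the same nucleotide pool, Cmpk2 as a mitochondrial kinase of UMP and CMP. Rsad2 lay at 3.36, 4.07 and 3.26 in 5 h livers with stem cells, against 0.42, 0.22 and 0.42 at 2 h. Without stem cells it lay at 3.59, 2.45 and 2.97 at 5 h and at 0.99, 0.89 and 0.97 at 2 h, the tightest of the members among those 2 h livers. Rsad2 rose 9.26-fold with stem cells (3.21 ± 0.28, adjusted p = 0.000326) and 4.16-fold without (2.06 ± 0.28, adjusted p = 0.00292).

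Cmpk2 had levels of 1.68, 2.35 and 2.10 in 5 h livers with stem cells and of -1.41, -1.45 and -1.06 in 2 h livers with stem cells. Without stem cells they were 2.34, 1.55 and 1.60 at 5 h and -0.07, -0.63 and -0.41 at 2 h. As with Rsad2, mouse 13 lay between the other untreated 2 h livers rather than below them. Cmpk2 rose 10.2-fold with stem cells (3.35 ± 0.26, adjusted p = 0.000212) and 4.60-fold without (2.20 ± 0.26, adjusted p = 0.00191), the smallest adjusted p among the members in both comparisons.

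The MX genes encode GTPases, of which mouse MX1 acts in the nucleus against influenza viruses and MX2 in the cytoplasm. RefSeq annotates both as transcribed pseudogenes in the GRCm38 reference, which is of strain C57BL/6J. Their probes lie on chromosome 16 of mm8, at 97552919 to 97552978 for Mx1 and 97715636 to 97715695 for Mx2. Mx1 had levels of -1.57, -1.02 and -1.16 in 5 h livers with stem cells, while its signal was not well above background in any of the 3 livers at 2 h (-4.88, -5.29 and -5.41). Without stem cells it lay at -2.17, -1.77 and -2.12 at 5 h and at -2.70, -3.03 and -4.73 at 2 h, where the last, mouse 13, was not well above background. With stem cells Mx1 was at least 8.31-fold higher at 5 h (fitted change 3.94 ± 0.44, adjusted p = 0.000731), the 2 h mean being raised on each array to the lowest signal well above background. Without stem cells the change was 1.46 ± 0.44 (adjusted p = 0.0470), and it missed the threshold under 10 of the 14 other settings tried. With normexp background correction the changes shrank to 0.81 with stem cells and 0.64 without, and neither was called.

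For Mx2, 5 h livers with stem cells lay at 4.20, 4.20 and 4.35, against 1.87, 1.88 and -0.02 at 2 h. Without stem cells the levels were 3.72, 3.83 and 3.60 at 5 h and 3.43, 2.99 and 0.46 at 2 h. The low values are mouse 10 with stem cells and mouse 13 without. Mx2 rose by 3.00 ± 0.71 with stem cells (adjusted p = 0.0173), but without mouse 10 the change was 2.37 and was not called, nor was it called without mouse 2 or mouse 3. It was the member that was not called in livers without stem cells (1.42 ± 0.71, adjusted p = 0.194).

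Isg15 and Usp18 form a pair of modifier and protease. Isg15 lay at 5.17, 4.80 and 5.16 in 5 h livers with stem cells, against 2.36, 2.55 and 2.28 at 2 h. Without stem cells it lay at 6.19, 5.30 and 5.38 at 5 h and at 3.80, 3.60 and 2.10 at 2 h. It rose 6.27-fold with stem cells (2.65 ± 0.40, adjusted p = 0.00289) and 5.50-fold without (2.46 ± 0.40, adjusted p = 0.00527). Its single probe is listed on chromosome 17 of mm8 (start 45870420, end 45870479) although the gene lies on chromosome 4, and this was not resolved.

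Usp18 (chromosome 6, mm8 probe at 121236114 to 121236173) levels were 3.38, 3.43 and 3.54 in 5 h livers with stem cells, against 1.53, 1.32 and 1.26 at 2 h. In livers without stem cells they were 4.21, 3.74 and 3.99 at 5 h and 2.80, 2.60 and 0.77 at 2 h. Mouse 13 lay below all 3 livers with stem cells here, as it did for Isg15. Usp18 rose 4.22-fold with stem cells (2.08 ± 0.43, adjusted p = 0.00987) and 3.78-fold without (1.92 ± 0.43, adjusted p = 0.0166).

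Isg20, the RNA exonuclease (chromosome 7, mm8 probe at 78790105 to 78790164), lay at 1.53, 1.99 and 1.82 in 5 h livers with stem cells, against -0.68, -0.45 and -0.50 at 2 h. Without stem cells it lay at 2.39, 2.20 and 1.95 at 5 h and at 1.04, 0.44 and -0.09 at 2 h. Isg20 rose 5.01-fold with stem cells (2.32 ± 0.26, adjusted p = 0.000731) and 3.29-fold without (1.72 ± 0.26, adjusted p = 0.00415).

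**Figure D3:**
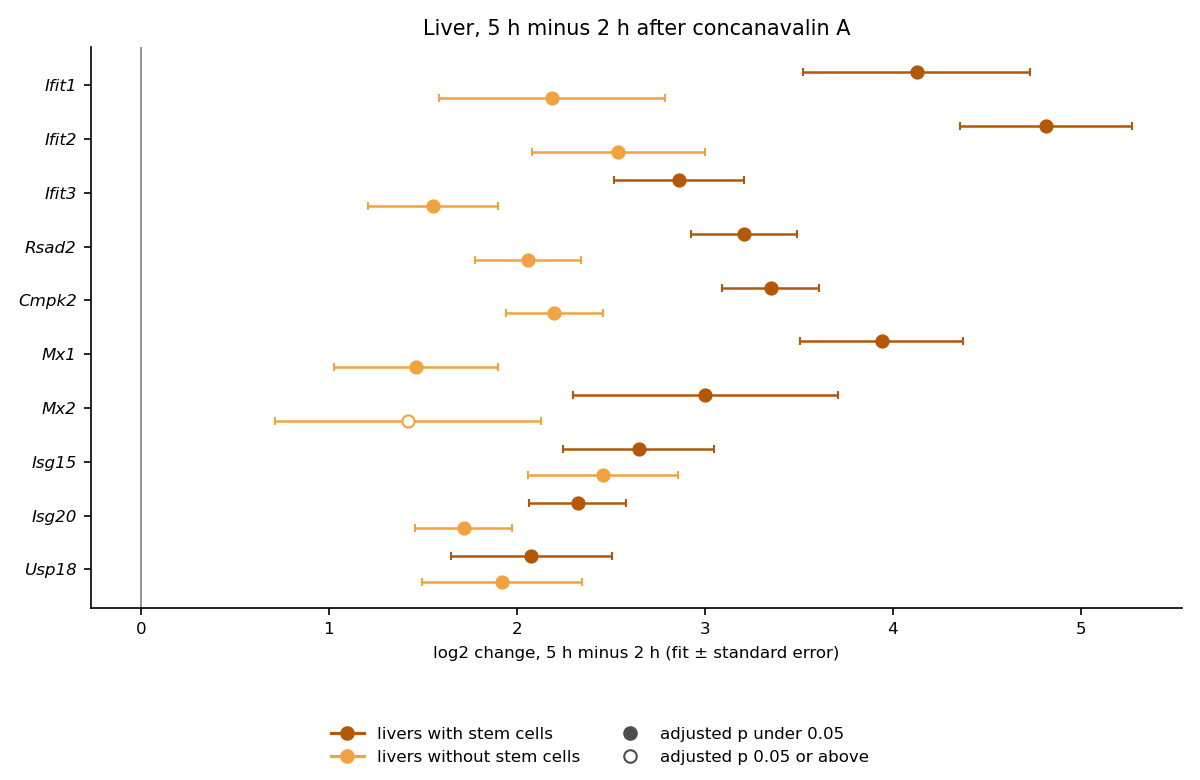
Fitted log2 change of each member in liver, 5 h minus 2 h, with its standard error, for livers with stem cells and without (n = 3 in each group). Stem cells were given at 3 h to the 5 h mice and together with concanavalin A to the 2 h mice. Filled points are called: all 10 with stem cells and all but Mx2 without, with Ifit2 furthest right at 4.82 and 2.54.

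Within each of the 3 slides all 10 members were higher at 5 h, with medians of 2.90, 3.02 and 3.55 with stem cells and 1.98, 1.05 and 2.87 without. With the slide as a block, 10 members were called with stem cells and 7 without, where Ifit1 (adjusted p = 0.0508) and Mx1 (0.0576) were no longer called. Without stem cells the count of called members dropped to 5 when mouse 4 or mouse 6 was left out, and to 3 when only the 6 arrays of the comparison were fitted. Calls fell over the whole array in these fits, to 895, 871 and 354 genes in that order, against 2290 with all livers. The 7 other probes of members went the same way as the probes used in both comparisons. Cell type markers moved between the times too: the 5 neutrophil markers averaged 1.81 to 1.91 with stem cells and 1.30 to 1.69 without at 5 h, against -0.82 to 0.90 and -1.86 to 0.78 at 2 h, though 0 of the 5 were called. Of 3 measured NK cell markers 2 rose with stem cells and 1 without, of 6 endothelial markers 2 fell with stem cells and 4 without, and 0 of 5 markers of plasmacytoid dendritic cells, a main source of interferon-alpha, were called in either. Of 3 monocyte markers 1 rose in each comparison, and of 5 B cell markers 1 fell in each. Of 5 T cell markers 0 were called with stem cells and 1 fell without, and of 8 mesenchymal and adipose stromal markers 1 fell in each. The part of these cell types in the effectors' change was not tested.

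At 2 h, livers of mice given stem cells together with concanavalin A were set against livers without stem cells. All 10 members lay lower with stem cells, with a median log2 difference of -1.0, while the median of all genes was 0.08. None was called (adjusted p = 0.573 to 0.864), and 6 of 10 had an unadjusted p under 0.05, as had 820 of the 14628 genes. In all, 0.0205% of the genes tested were called lower and 0.00684% higher, 4 genes together. Ifit2 differed by -1.88 ± 0.46 (adjusted p = 0.573), Ifit1 by -1.59 ± 0.60, Isg20 by -1.01 ± 0.26, Ifit3 by -1.0 ± 0.34 and Cmpk2 by -0.93 ± 0.26. Mx1, which was not above background in the livers with stem cells, was at least 1.76-fold lower there (fitted -1.70 ± 0.44, adjusted p = 0.583), but lay 0.37 higher with normexp background correction. Mx2 (-1.05 ± 0.71), Isg15 (-0.77 ± 0.40), Usp18 (-0.69 ± 0.43) and Rsad2 (-0.59 ± 0.28) differed least from 0 relative to their errors.

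The treated and untreated 2 h livers did not overlap for 5 members, Ifit2, Rsad2, Cmpk2, Mx1 and Isg20, all lower with stem cells, where 3.41% of all genes were lower and 4.79% higher without overlap. Mice 11 and 12 lay above all 3 treated livers for 10 of 10 members, a pattern whose share among all genes was not counted. Mouse 13 did so for those 5 and was the lowest of the 3 untreated livers for 8 of 10. For Mx1, neither mouse 13 (-4.73) nor any treated liver (highest -4.88) was well above background. Its other probe overlapped (treated up to -4.72, untreated from -5.91), as did another Rsad2 probe (treated up to -2.04, untreated from -2.36). The remaining Rsad2 probe and the other probes of Ifit2, Cmpk2 and Isg20 did not overlap. Within slides, all 10 members were lower with stem cells on slides 1 and 2 (medians -1.18 and -1.54), while on slide 3, which held mouse 13, 6 were lower and 4 higher (median -0.46). Without mouse 13 the test called 6 members, all lower (Ifit1, Ifit2, Mx1, Isg15, Isg20 and Usp18), without mice 10 and 13 it called 7, and with array weights 8. Calls rose over the whole array in these fits, to 480, 453 and 499 genes in that order, against 4 with all livers.

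Mouse 13 and mouse 10 also stood apart from their groups in genes outside the members. Irf1, an early interferon-gamma target, lay at 7.61, 7.84 and 4.22 in mice 8, 9 and 10, against 8.02, 8.00 and 3.41 in mice 11, 12 and 13. Socs1, a feedback inhibitor of interferon receptors, lay at 2.60, 3.14 and -1.89 in the treated mice, against 5.25, 5.02 and -2.08 in the untreated ones. Ifng itself lay at 1.79, 2.20 and 0.39 with stem cells and at 3.34, 2.09 and -0.50 without. Neutrophil markers averaged 0.90, 0.58 and -0.82 with stem cells and 0.48, 0.78 and -1.86 without. Among the effectors, mouse 10 was far lower than mice 8 and 9 in Mx2, at -0.02 against 1.87 and 1.88, and was the highest of the treated livers in Ifit2, Ifit3 and Cmpk2. NK cell markers did not overlap at 2 h, at -4.21 to -3.92 with stem cells and -3.86 to -3.67 without, with 3 of 5 above background. The part of these genes and markers in the 2 h values was not tested.

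At 5 h, livers of mice given stem cells at 3 h were set against livers without. The effectors were high in both, and none was called (adjusted p = 0.442 to 0.848, 0 of 10 with an unadjusted p under 0.05), while 0.0205% of genes were called higher and 0.0137% lower. The IFIT genes, Rsad2, Cmpk2, Mx1 and Mx2, 7 in all, lay above 0, from 0.22 ± 0.26 for Cmpk2 to 0.77 ± 0.44 for Mx1, and Isg15 (-0.58 ± 0.40), Usp18 (-0.53 ± 0.43) and Isg20 (-0.40 ± 0.26) below 0. Between those ends lay Rsad2 (0.56 ± 0.28), Mx2 (0.53 ± 0.71), Ifit2 (0.39 ± 0.46), Ifit1 (0.34 ± 0.60) and Ifit3 (0.31 ± 0.34). These errors and tests use the spread shared with the 2 h livers and not that of the 5 h livers alone. For Mx2 the SD was 0.09 with stem cells and 0.12 without at 5 h, against 1.09 and 1.60 at 2 h. Groups did not overlap for Mx1 and Mx2, higher with stem cells as were 12.7% of genes, and for Isg15 and Usp18, lower as were 9.44%, so these counts are near those of all genes. Within slides, 2, 7 and 8 of 10 members were higher with stem cells on slides 1, 2 and 3. The slide 1 pair was mouse 1 against mouse 4, the untreated liver with the highest Ifit1, Ifit2, Ifit3, Rsad2, Cmpk2, Isg15, Isg20 and Usp18 at 5 h. Several marker lists differed without overlap between these livers: stromal markers averaged 0.55 to 0.96 with stem cells and 0.37 to 0.49 without, endothelial markers 0.75 to 1.04 and 0.19 to 0.70, T cell markers -1.95 to -1.87 and -2.50 to -2.20, B cell markers -1.92 to -1.54 and -2.33 to -2.13, and neutrophil markers 1.81 to 1.91 and 1.30 to 1.69. No marker of these lists was called. Monocyte markers did not overlap either, at -2.07 to -2.02 with stem cells and -2.69 to -2.28 without, with at most 2 of 3 above background. The part of all these lists in the members' values was not tested.

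**Figure D4:**
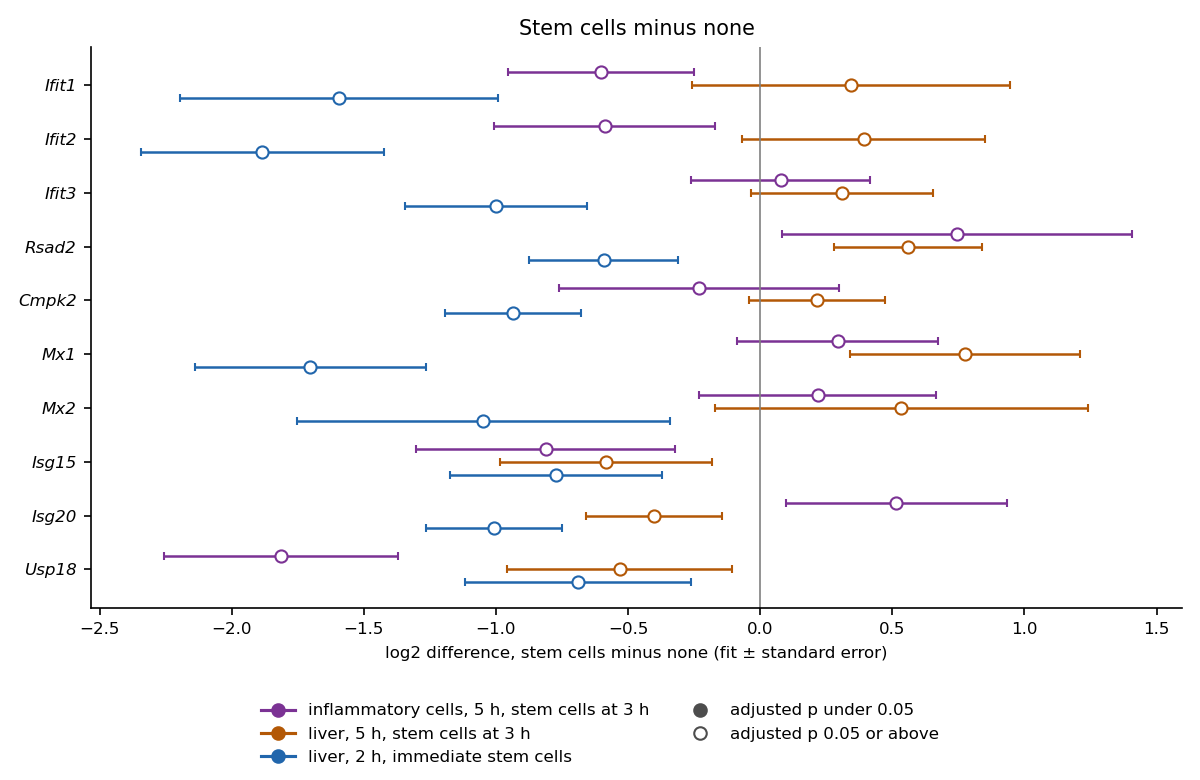
Fitted log2 difference, stem cells minus none, with its standard error, for each member in inflammatory cells at 5 h, liver at 5 h and liver at 2 h. All points are open because none was called. In the 2 h liver all 10 lie left of 0, from -1.88 for Ifit2 to -0.59 for Rsad2.

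Whether the stem cell difference itself changed between 2 h with immediate cells and 5 h with cells at 3 h was tested as an interaction. It lay above 0 for all 10 members, with a median of 1.23, and was called for none (adjusted p = 0.761 to 1.0, 6 with an unadjusted p under 0.05, as had 681 of the 14628 genes), against 0.0137% of genes called higher and 0% lower. It was 2.48 ± 0.62 for Mx1, on values below background at 2 h, and 0.17 with normexp background correction. Among the others it was highest for Ifit2 (2.28 ± 0.65), followed by Ifit1 (1.94 ± 0.85) and Mx2 (1.58 ± 1.00), and lowest for Usp18 (0.16 ± 0.60) and Isg15 (0.19 ± 0.57). Without mouse 13, 3 members were called (Ifit1, Ifit2 and Mx1), among 22 genes called in all, against 2 genes with all livers. The schedule, the time after concanavalin A and the time of the cells differ together here and cannot be told apart.

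Inflammatory cells of mice with stem cells were next set against those of mice without. No member was called (adjusted p = 0.168 to 0.923) and the median difference was -0.08, with 5 members above and 5 below 0. No gene of 14231 was called higher (0%) and 0.0141% lower. Usp18 differed most: it lay at -1.24 and -1.18 with stem cells, against 1.11 and 0.10 without, a difference of -1.81 ± 0.44 (adjusted p = 0.168, the 1 member with an unadjusted p under 0.05). It was called when sample 985 was left out (-2.32), where the lone untreated sample is assumed to vary like the other group, and with normexp background correction (-1.31). In those fits 2095 and 1006 genes were called in all, against 2 otherwise. Isg15 lay at 1.12 and 1.00 with stem cells and at 2.49 and 1.25 without, a difference of -0.81 ± 0.49. Ifit1 lay at -2.13 and -2.08 with stem cells and at -1.31 and -1.69 without, a difference of -0.60 ± 0.35. The groups did not overlap for these 3 and Ifit2, all lower with stem cells, where 24.8% of genes were lower without overlap, and for Ifit3, higher, where 27.7% were.

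Several members varied as much within a group of inflammatory cells as between groups. Rsad2 had levels of 4.11 and 2.11 with stem cells and of 2.31 and 2.42 without, and its difference of 0.75 ± 0.66 was -0.26 without sample 987. Cmpk2 had levels of -0.78 and -1.19 with stem cells and of -0.06 and -1.45 without, a difference of -0.23 ± 0.53. The other members differed by -0.59 ± 0.42 (Ifit2), 0.08 ± 0.34 (Ifit3), 0.22 ± 0.45 (Mx2), 0.29 ± 0.38 (Mx1) and 0.51 ± 0.42 (Isg20). Other cell types differed between the samples too: neutrophil markers averaged 2.64 and 3.20 with stem cells and 1.64 and 1.34 without, and the 6 Kupffer cell and macrophage markers 3.33 to 3.42 with stem cells and 1.32 to 2.51 without. The 8 hepatocyte markers averaged 2.15 to 3.32 with stem cells and 0.75 to 2.31 without, and 0 markers of these 3 lists were called. Their part in the members' levels was not tested. Ifng lay at 4.05 to 4.37 with stem cells and at 6.96 to 7.37 without, a difference of -2.95 ± 0.37 that was not called (adjusted p = 0.0914). The test of whether the stem cell difference was another in inflammatory cells than in 5 h liver called 0 of 10 members (adjusted p = 0.320 to 0.919, 0 with an unadjusted p under 0.05), against 0.491% of genes called higher and 1.74% lower. Usp18 (-1.28 ± 0.67) and Isg20 (0.92 ± 0.45) were the lowest and the highest of the members in that difference.

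Inflammatory cells carried far less RNA of most effectors than whole liver at the same 5 h, relative to each array's 75th percentile. With stem cells 8 of 10 members were lower and 1, Isg20, higher, and without stem cells 7 were lower and 0 higher. Many genes differ between these tissues: with stem cells 35.4% of genes were called lower and 28.3% higher, and without stem cells 31.7% lower and 29.3% higher. The members' median differences were -3.84 with stem cells and -3.04 without, where the medians of all genes were -0.23 and -0.04. The scaling moves that centre: the median of all genes with stem cells was 0.19 with normexp background correction and -0.05 with quantile normalization.

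Ifit1 stood furthest from liver, 61.6-fold lower in inflammatory cells with stem cells (-5.94 ± 0.62, adjusted p = 2.4e-06) and 32.0-fold lower without (-5.00 ± 0.62, adjusted p = 1.3e-05). Ifit3 was 19.2-fold lower with stem cells (-4.26 ± 0.36), with levels of 0.25 and 0.25 in the cells against 4.34 to 4.68 in the livers, and 16.3-fold lower without, with 0.10 and 0.24 against 3.59 to 4.81. Ifit2 was lower by less, -3.68 ± 0.50 with stem cells and -2.70 ± 0.50 without, from levels of -0.71 and -0.72 with stem cells and 0.31 and -0.56 without. All 3 IFIT genes thus lay below every 5 h liver in every sample of inflammatory cells.

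Usp18 differed by -4.66 ± 0.48 with stem cells and -3.38 ± 0.48 without, and Isg15 by -3.99 ± 0.47 and -3.76 ± 0.47. Mx2, at 0.28 and -0.24 in cells with stem cells and 0.25 and -0.65 without, differed by -4.23 ± 0.74 and -3.91 ± 0.74, and Cmpk2 by -3.03 ± 0.38 and -2.58 ± 0.38. These members and the IFIT genes were called in both comparisons (highest adjusted p = 0.000499). Mx1 lay at -3.09 and -2.62 in cells with stem cells and at -3.36 and -2.94 without. It was called lower with stem cells (-1.61 ± 0.46, adjusted p = 0.00851) and not without (-1.13 ± 0.46, adjusted p = 0.0504). Both calls are narrow: with stem cells Mx1 was not called without sample 987 (adjusted p = 0.0723) or with normexp background correction (-0.57, adjusted p = 0.288), and without stem cells it was called in a fit of the compared arrays alone (adjusted p = 0.0139).

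Rsad2 and Isg20 did not follow that pattern. Rsad2, at 2.11 to 4.11 in inflammatory cells and 2.45 to 4.07 in 5 h livers, was not called (-0.45 ± 0.47 with stem cells, -0.64 ± 0.47 without), although its neighbour Cmpk2 was lower in both. With stem cells that rests on sample 987: without it the Rsad2 difference was -1.46, and without sample 989 it was 0.55. Without stem cells the Rsad2 difference kept its sign under the other settings, from -0.92 to -0.33. Isg20 lay at 3.15 and 2.44 in cells with stem cells, against 1.53 to 1.99 in the livers, and was called higher (1.02 ± 0.32, adjusted p = 0.0135). Without sample 987 that difference was 0.66 and was not called. Without stem cells Isg20 lay at 2.03 and 2.54 in the cells and 1.95 to 2.39 in the livers, a difference of 0.10 ± 0.32, and its other probe gave -0.34. Groups did not overlap for 9 members without stem cells, all lower in inflammatory cells, where 38.4% of genes were, and for 8 lower and 1 higher with stem cells, where 42.9% and 34.9% were.

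**Figure D5:**
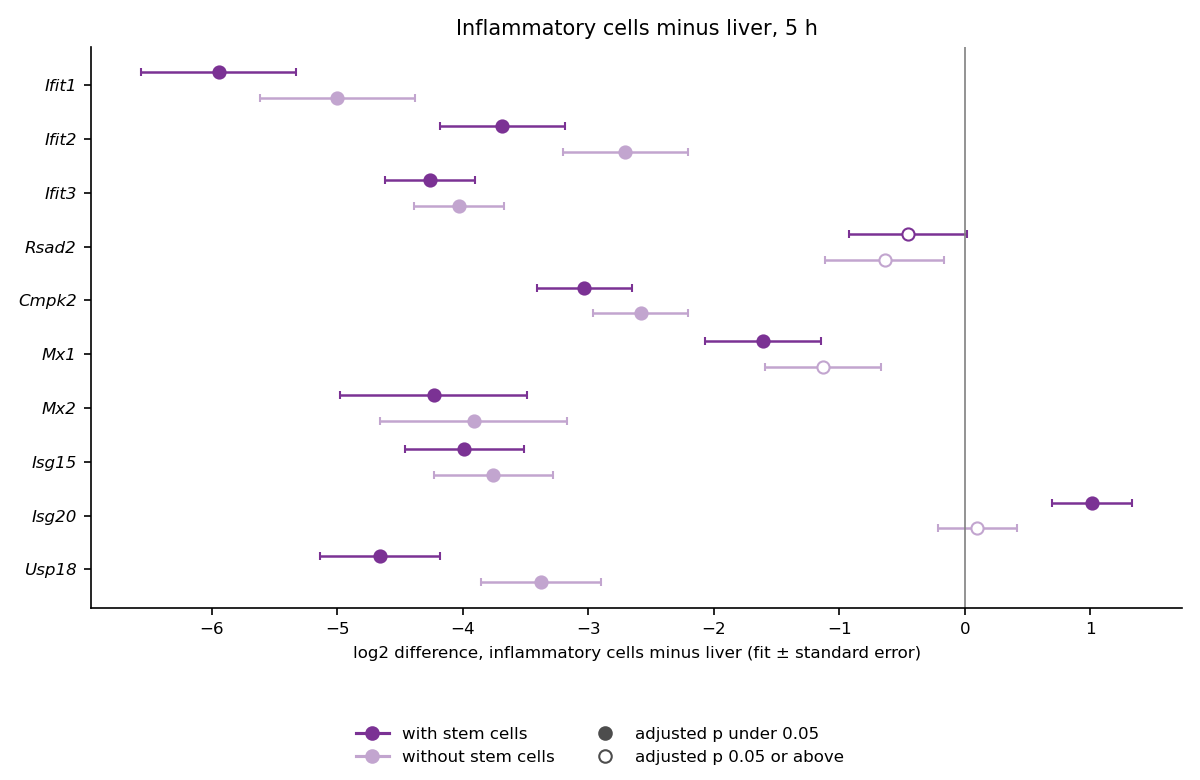
Fitted log2 difference of each member at 5 h, inflammatory cells minus liver, with its standard error, with stem cells and without. Filled points are called. Ifit1 lies furthest left at -5.94 and -5.00, and Rsad2 and Isg20 lie nearest 0.

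Across the 12 livers the members varied together. Pearson correlations of the 45 pairs of members ran from 0.79 (Rsad2 with Mx2) to 0.98 (Isg15 with Usp18), with a median of 0.94. All pairs share the step in time and each array's scaling. Deviations from the group means had a median correlation of 0.70 (range -0.09 to 0.98, 42 of 45 pairs above 0). They were not scaled by group, so groups with a wide spread weigh most in them. The spread within groups was widest in 2 h livers without stem cells, where the median SD of the members was 1.01, against 0.19 in 2 h livers with stem cells, 0.22 in 5 h livers with stem cells and 0.34 in 5 h livers without.

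Among genes outside the members, 8 tracked the members' mean standardised level over the 12 livers most closely (Pearson r = 0.985 to 0.992, descriptive). They were Samhd1, which breaks down nucleotides needed for DNA synthesis, the OAS relative Oasl1, the granzyme gene Gzmb, the necroptosis gene Mlkl, the ceramide synthase gene Cers6, the kinase gene Rps6ka3, the adaptor gene Garem1 and the receptor subunit gene Il20rb. Without mice 10 and 13 their correlations were 0.980 to 0.996.

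The rest of the pathway was followed through lists of 84 genes that hold ligands, receptors, signal factors, sensors, ISG15 enzymes, the OAS family and other induced genes, of which 76 were on the array and 67 were tested in liver. Ligands came first in this chain and were hard to see: of 11 type I and III interferon genes on the array 4 were tested in liver, 0 were called between the times, and Ifnb1 (interferon-beta) was not well above background on any of the 16 arrays. The receptor genes did not pass the test between times either, with Ifnar1 at 0.06 ± 0.13 with stem cells and -0.05 ± 0.13 without, and Ifnar2 at 0.18 ± 0.14 and -0.06 ± 0.14. Of 11 receptor kinases and transcription factors of the pathway 4 rose with stem cells and 2 without. Irf7, which amplifies interferon-alpha production, rose by 1.06 ± 0.23 in both. Stat2 (1.06 ± 0.48 and 0.87 ± 0.48), Irf9 (0.17 ± 0.27 and 0.25 ± 0.27) and Irf1 were not called. Irf1 lay at 6.81 to 7.01 with stem cells and 7.25 to 7.78 without at 5 h, in each case above the 1 low mouse at 2 h of the same treatment (mouse 10 or 13) and below the other 2.

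Further down the chain more genes rose at 5 h. In all, 30 of the 67 rose with stem cells and 18 without, and 0 fell in either. Herc6, the mouse ligase that joins ISG15 to proteins, rose by 3.21 ± 0.37 with stem cells and 2.46 ± 0.37 without. Uba7, the activating enzyme for ISG15, rose by 1.41 ± 0.21 and 0.91 ± 0.21, while its carrier Ube2l6 was not called (0.38 ± 0.21 and 0.44 ± 0.21). The OAS family, which makes a second messenger for RNase L, had 6 of 7 members called with stem cells and 4 of 7 without, led by Oasl1 at 2.89 ± 0.34 and 2.15 ± 0.34. Eif2ak2, the RNA-activated kinase PKR, rose by 2.70 ± 0.48 and 2.02 ± 0.48, and Trim30a by 2.54 ± 0.38 and 2.11 ± 0.38. Zbp1, a nucleic acid sensor, rose by 1.48 ± 0.40 and 1.76 ± 0.40, and Oasl2 by 2.33 ± 0.44 and 1.71 ± 0.44. Tlr3, a sensor of double-stranded RNA, and Parp14 rose with stem cells, by 2.75 ± 0.57 and 2.79 ± 0.73, and were not called without (1.57 ± 0.57 and 1.94 ± 0.73). For stem cells against none 0 of these genes were called by limma at 2 h or 5 h in liver or in inflammatory cells, where 16, 6 and 18 had an unadjusted p under 0.05, as had 820 and 1813 of the 14628 genes in liver and 2552 of the 14231 in inflammatory cells. Their median differences were -0.40 at 2 h, with 12 of 67 above 0, -0.11 at 5 h, and -0.41 in inflammatory cells.

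Between tissues, with stem cells 11 of 68 genes were higher in inflammatory cells and 27 lower, and without stem cells 12 were higher and 20 lower, near the shares of all genes given above for lower calls (35.4% and 31.7%) and below those for higher calls (28.3% and 29.3%). Without stem cells the ligand Ifng was 36.0-fold higher in the cells (5.17 ± 0.83, adjusted p = 0.000127), and with stem cells it was not called (1.69 ± 0.83, adjusted p = 0.0927). Among the others that were higher, with stem cells first, were the phosphatase gene Ptpn6 (4.02 ± 0.22 and 4.04 ± 0.22), Sp100 (4.10 ± 0.29 and 3.48 ± 0.29), Ifi27l2a (3.38 ± 0.30 and 3.48 ± 0.30), the RNA sensor gene Tlr7 (2.06 ± 0.34 and 3.87 ± 0.34), Irf5 (1.79 ± 0.28 and 2.11 ± 0.28) and Ifngr1 (2.44 ± 0.27 and 1.89 ± 0.27). Lower were Ifi44 (-2.83 ± 0.41 and -3.63 ± 0.41), Oasl1 (-2.77 ± 0.36 and -2.90 ± 0.36), Rtp4 (-3.53 ± 0.47 and -2.64 ± 0.47), Ifitm3 (-2.69 ± 0.32 and -2.83 ± 0.32), Herc6 (-2.31 ± 0.46 and -2.69 ± 0.46), Eif2ak2 (-3.22 ± 0.50 and -1.81 ± 0.50), Parp9 (-2.91 ± 0.39 and -1.65 ± 0.39) and Ifih1, which encodes the RNA sensor MDA5 (-3.02 ± 0.22 and -2.49 ± 0.22). Parp14 was lower with stem cells (-3.19 ± 0.75) and not called without (-1.69 ± 0.75). Tlr3 was lower with stem cells (-2.44 ± 0.59) and, not above background in the cells without stem cells, at least 10.1-fold lower there (adjusted p = 5.14e-05). Ifnar2 was lower in both (-1.31 ± 0.29 and -1.73 ± 0.29), as was Irf7 (-1.34 ± 0.27 and -1.56 ± 0.27), and Ifnar1 was higher with stem cells (1.12 ± 0.33).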

How the data were processed

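Total RNA of 12 livers and 4 samples of hepatic inflammatory cells was measured on 16 Cy3-labelled Agilent arrays of 1 design. Scanner files deposited by the authors give the linear intensity of every spot. The submitters' processing notes name Agilent Feature Extraction 10.5.1.1 as the software, whose settings in the file headers are background subtraction and detrending, with no normalization between arrays. The authors' series table held the same intensity values (largest difference 0). Probe positions are on mm8, per the file headers.

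Each processed signal was put on the log2 scale and the array's 75th percentile was subtracted. Of each array's 43379 non-control spots, 55 to 100 flagged as outliers were left out, spots of a probe were averaged, and 0 were saturated. Probes had to be well above background on at least 3 of 12 liver arrays, 2 of 4 cell arrays or 2 of all 16. Probes were named through the RefSeq gene table. The brightest kept probe stood for a gene. Group means, 4 of liver, 2 of cells or 6 of both, were fitted in R 4.3.3 by limma 3.58.1 (lmFit and eBayes, two-sided p). The p-values were adjusted over all genes by Benjamini and Hochberg's method, with a threshold of 0.05. The number of arrays limits the precision. The fits were tested on simulated data.

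The members, gene lists and settings were chosen with earlier results of these data known. Named genes are all members, 12 signalling genes fixed by name (1 is not reported here), up to 6 called list genes with the largest change per direction and comparison, and the 8 most like the members. The other settings were normexp background correction (offset 50), quantile normalization, no filter on dim probes, the mean of probes, array weights, slide as a block, only the arrays compared, leaving out mice 10 and 13, and leaving out each sample. Marker lists covered hepatocytes, leukocytes, T cells, B cells, monocytes, NK cells, neutrophils, Kupffer cells and macrophages, plasmacytoid dendritic cells, endothelial cells, and mesenchymal and adipose stromal cells.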

Additional observations from a re-analysis of the deposited data

How the results depend on the processing

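Pairing by replicate number was not possible because the groups compared share none. Slides, which held 1 array of each liver group, were used as a block instead, and this ended 2 calls, Ifit1 (adjusted p = 0.0508) and Mx1 (0.0576) for 5 h against 2 h without stem cells, and no other call of a member. Of the values of single members under other settings, 1120 kept their direction and their side of the threshold, 34 passed the threshold only under the other setting, 33 lost it and 23 changed sign, all 23 of them in values that were not called. The cause was not tested for any of these.

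For immediate stem cells against none at 2 h, where 0 members were called, 8 were called with array weights, 7 without mice 10 and 13, and 0 to 6 when each liver was left out. For 5 h against 2 h without stem cells, 3 were called in the fit of the 6 arrays compared, which has fewer samples, and 5 to 9 when each liver was left out. That fit of 6 arrays called 354 genes in all, against 2290 in the main fit. The same comparison with stem cells gave 9 to 10. For inflammatory cells with stem cells against none, 1 was called with normexp and 0 to 1 when each sample was left out. The difference of stem cell effects between the schedules was called for 2 members with array weights, 4 without mice 10 and 13, and 0 to 3 when each liver was left out. Over the whole array, 25 genes were called with array weights and 57 without mice 10 and 13, against 2 in the main fit. Inflammatory cells against liver gave 8 to 9 with stem cells and 7 to 7 without, and stem cells at 5 h in liver and the difference of effects between tissues gave 0 to 0.

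Sign changes with normexp were Mx1 at 2 h (0.37), Ifit3 (-0.0071) and Cmpk2 (0.0252) for stem cells against none in inflammatory cells, and Mx1 for the difference between tissues (0.0931). With each sample left out, other values turned sign within their ranges. Stem cells against none in inflammatory cells ranged from -0.26 (without sample 987) to 1.75 for Rsad2, from -0.93 to 0.46 (without 983) for Cmpk2, and from -0.24 (without 985) to 0.67 for Mx2, which was -0.04 without 987. Inflammatory cells against liver ranged without stem cells from -0.16 (without 985) to 0.36 for Isg20, which was -0.02 without mouse 6 and -0.12 with the mean of probes. With stem cells Rsad2 ranged from -1.46 (without 987, called lower) to 0.55 (without 989) and was 0.28 with quantile normalization. Differences between the schedules ranged from -0.13 to 0.72 for Isg15 and from -0.21 to 0.80 for Usp18, lowest without mouse 11, and were -0.03 and -0.11 without mouse 12. Differences of effects between tissues ranged from -0.53 to 0.0733 (without mouse 5) for Ifit3 and from -0.82 (without 987) to 1.19 for Rsad2, which was -0.11 without mouse 4. They ranged up to 0.25 for Cmpk2, 0.14 for Mx2 and 0.39 for Isg15 without 983, from -1.14, -0.77 and -0.85 without 985. Mx1 lay near background, and inflammatory cells had 2 samples per group.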
